A study of Mus musculus with 9 samples.

Results

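The 55 genes described here encode the TGF-β superfamily signalling system: ligands, latent TGF-β binding proteins, receptors, secreted antagonists, SMADs, intracellular regulators and the Id genes. They were taken by gene symbol from a table of 54532 annotated genes, by a list of names and no threshold on a measured value. All 55 were found. RNA sequencing was performed on cultured mouse cardiosphere-derived cells (CDCs), cells that grow out of heart explants through floating cardiospheres, from heart ventricle of C57BL/6 mice. The groups held 3 libraries each. The first was untreated primary cells, named pECDCs by the study because they came from the epicardium. The second was iECDCs, cells immortalized with human telomerase reverse transcriptase (hTERT), untreated, at passage 30. The last was labelled as immortalized CDCs of passage 30 that had received SB431542 for 3 days. Per the study's methods hTERT was driven by a CMV promoter in a lentivirus and infected cells were selected with puromycin, so that iECDCs carried the transgene. The SB431542 group carried it as well if its label is right. The SB431542 labels and the study's methods differ. The methods name an epithelial clone derived from primary cells as the treated sample, and therefore the treated libraries were compared with both iECDCs and pECDCs. No label says whether libraries of a group came from separate cultures or animals. The study's methods describe biological replicates, but with another number per condition than the 3 libraries used here. The p-values then measure the spread between these libraries, which may be technical. In bulk RNA fewer cells that express a gene and less RNA per cell cannot be told apart.

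TGF-β superfamily ligands bind pairs of type I and type II receptor kinases at the cell surface. TGF-β, activin and nodal signal mainly through SMAD2 and SMAD3, bone morphogenetic proteins (BMPs) mainly through SMAD1, SMAD5 and SMAD9, and both branches share SMAD4. Latent TGF-β binding proteins hold the ligand inactive in the matrix, secreted antagonists trap activins or BMPs, and the Id genes are common BMP targets. In the heart the pathway is known for epicardial epithelial-to-mesenchymal transition and for fibrosis. SB431542 is a kinase inhibitor of the TGF-β, activin and nodal type I receptors encoded by Tgfbr1, Acvr1b and Acvr1c, and it spares the BMP type I receptors.

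Libraries held 16568306 to 23951392 gene counts. A pair of libraries stood apart from the others of their group. For iECDC replicate 3 the chi-square per degree of freedom against the other 2 was 24.9 and 30.8, where those 2 gave 4.61. For SB431542 replicate 2 it was 70.3 and 71.5, where the other 2 gave 3.79. Calls that turned on these libraries are given beside the results. The epithelial markers Cdh1, Epcam, Krt8 and Krt18 were at 3 counts or fewer in every SB431542 library, in 4 of 4 cases. Of 7 epicardial and mesothelial markers Tbx18 (18.8 to 41.8 FPKM) and Krt19 (18.2 to 37.9) were the highest in every library. Aldh1a2 was at 5.28 to 5.91 in pECDCs, 2.5 to 3.19 in iECDCs and 0.227 to 0.546 in treated cells. In the same order Tcf21 was at 0.638 to 0.851, 0.388 to 0.590 and 1.34 to 1.58. Upk3b was at 0.109 to 0.142, 0.0561 to 0.166 and 1.16 to 1.36. Wt1 and Msln were below 1 FPKM in all libraries. Of the 7 markers 3 were higher and 1 lower in treated cells than in iECDCs, and 4 were higher and 1 lower than in pECDCs. The 5 endothelial and 4 cardiomyocyte markers summed to at most 0.165 and 1.68 FPKM in any library, and the 4 haematopoietic markers to 4.14 to 8.27 FPKM. Smooth muscle markers (Acta2, Tagln, Cnn1, Myh11) summed to 721 to 744 FPKM in pECDCs, 817 to 1922 in iECDCs and 139 to 331 in SB431542-treated cells. Acta2 made up most of each sum. Of the 4 genes 1 was higher in iECDCs than in pECDCs. In treated cells 2 were lower than in iECDCs and 1 lower than in pECDCs. In iECDC replicates 1, 2 and 3 Cnn1 was at 3.15, 2.80 and 19.0 FPKM, against 4.96 to 5.43 in pECDCs. Tagln was likewise at 1.42, 1.44 and 3.73, against 1.44 to 2.26, and Myh11 at 0.508, 0.584 and 1.10, against 0.150 to 0.218. Acta2 alone reached 1898 FPKM in iECDC replicate 3, against 812 and 848 in the other 2, and 322 in SB431542 replicate 2, against 137 and 137. Of 5 fibroblast markers 4 were lower in iECDCs than in pECDCs (Col1a1, Col3a1, Pdgfra and Dcn), and 3 were higher in treated cells than in iECDCs (Col3a1, Pdgfra and Dcn). Col3a1 was at 182 and 193 FPKM in SB431542 replicates 1 and 3 and 66.2 in replicate 2, and Dcn at 17.4 and 18.7 against 3.43, with 0.39 to 0.542 in iECDCs. Whether a shift in cell state within these libraries had a part in the results below was not tested.

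Levels are given as FPKM, fragment counts divided by the length of the gene model and by the size of the library, which permits comparison between genes. Of the 55 genes 44 had a mean of at least 1 FPKM in pECDCs, 44 in iECDCs and 43 in SB431542-treated cells. The BMP antagonist gene Grem1 stood at the top in pECDCs with 367 ± 3.6 FPKM (SD, n = 3), followed by the secreted glycoprotein gene Fstl1 with 203 ± 2.8, Id3 with 192 ± 4.2 and the activin A subunit gene Inhba with 112 ± 5.2. Fstl1 and Id3 were separated by more than their SDs in pECDCs, and not in iECDCs, where they had 180 ± 22 and 201 ± 17 FPKM. Among the TGF-β ligand genes Tgfb1 and Tgfb3 were at 6.58 FPKM or more in every library and Tgfb2 lay between 0.624 and 1.70. Of the BMP and GDF ligand genes Gdf6 was at 11.5 FPKM on average in pECDCs, Bmp6 at 5.02 in iECDCs and Bmp4 at 7.02 in treated cells. The others were low. Bmp5 and Bmp7 had at most 1 count in any library, Gdf5 at most 2, and Bmp2 at most 10. Gdf10 had 4, 5 and 10 counts in pECDCs, none in iECDCs and 34, 3 and 48 in treated cells. With all libraries Gdf10 was below the filter on low counts. Without SB431542 replicate 2 it passed as higher in treated cells against both other groups (edgeR adjusted p under 0.05). Mstn, the myostatin gene, had no count in any library, and 3 counts, taken as the limit of detection, correspond to 1.25e-05% to 1.81e-05% of a library. These limits cover counting error only. Noggin (Nog) and Chrdl1, BMP antagonist genes, had at most 1 and 4 counts. The plot of level by library shows the whole set.

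**Figure D1:**
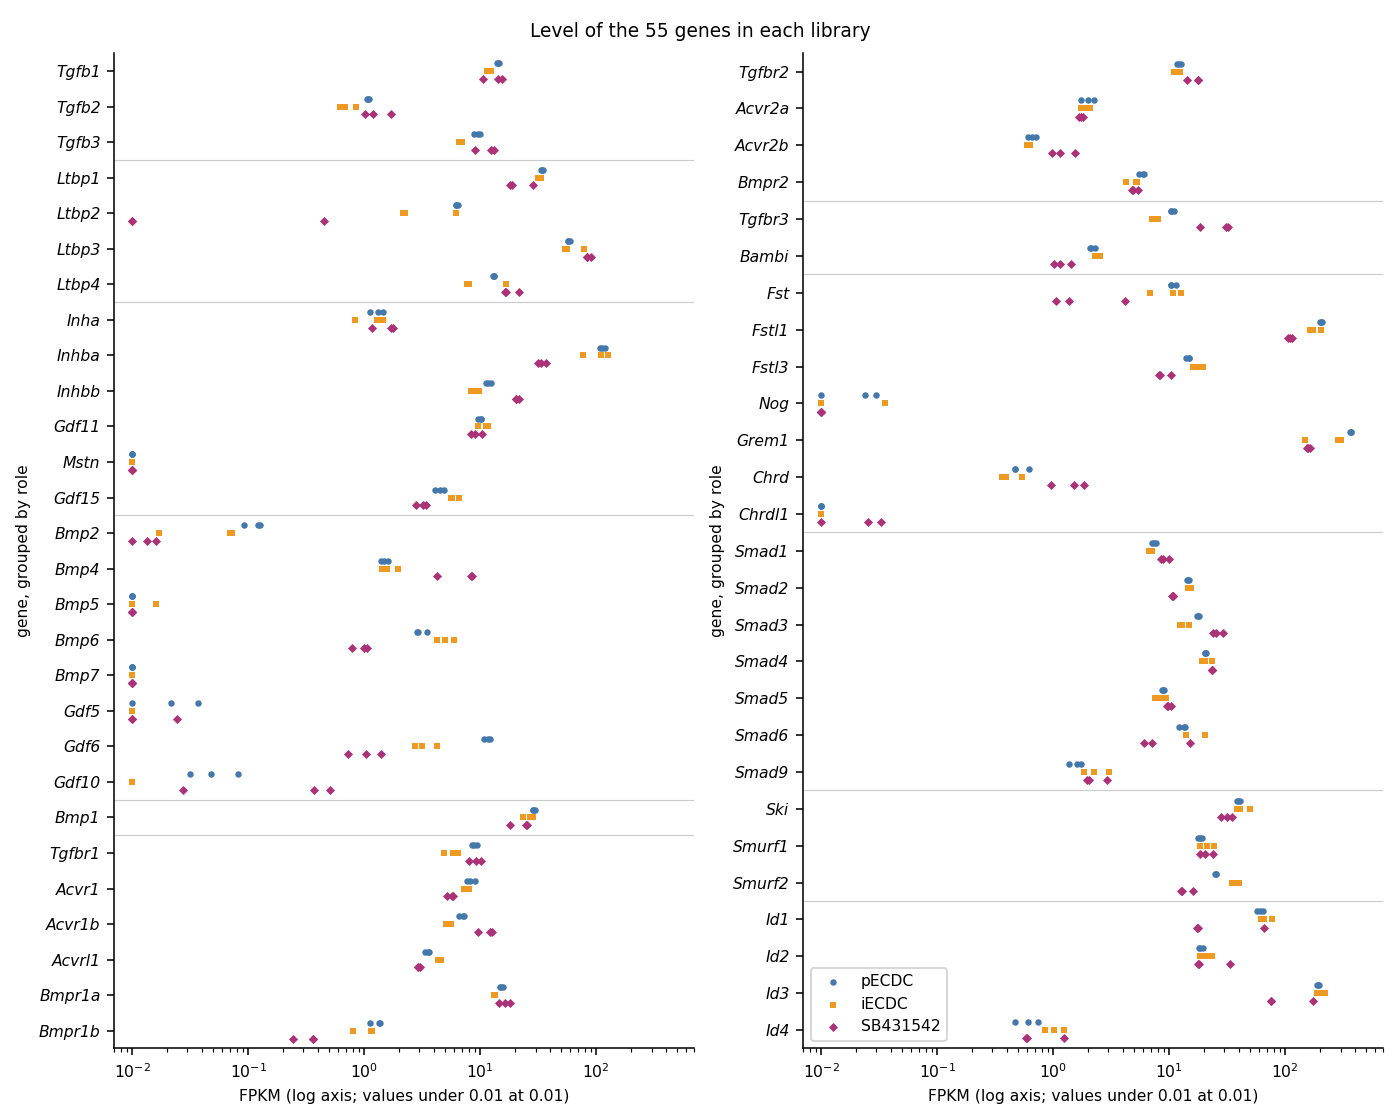
FPKM of the 55 genes on a log axis, with 1 point per library (circles pECDC, squares iECDC, diamonds SB431542; values under 0.01 are drawn at 0.01) and grey lines between roles. Most genes lie above 1 FPKM in all groups, while Mstn and Bmp7 lie at the lower edge in all 9 libraries.

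Promoter windows from RefSeq (assembly GRCm38.p6, 250 bases before to 50 after a transcription start) were found for 40 of the 55 genes, 6 of them with more than 1 window. Of the 49 windows 1 held the SMAD palindrome GTCTAGAC, that of Smad6, against 0.213% of 32851 windows of all genes. The GC-rich BMP SMAD element GGCGCC occurred in 16 of 49 windows (32.7%), against 11.9% of all windows. TATAAA was found in 6 (12.2% against 13.6%) and the AP-1 element TGACTCA in 1, that of Ltbp3 (2.04% against 5.20%). Both strands were read, all 4 motifs read the same windows, and the windows were not matched for GC content. A match is a description of letters and shows no binding. The stretches below end 10 bases after the start and carry these motifs in capitals. Id2, Id3 and Smad6 are shown because their levels in SB431542 replicate 2 stood above those of the other treated libraries, and Smurf2 and Inhba because they were lower in treated cells than in iECDCs by more than 1 log2 unit. No motif overlapped another in them. Id2 lies at chr12:25096083-25096342 (minus strand), Id3 at chr4:136143572-136143831 (plus), Smad6 at chr9:64022050-64022309 (minus), Smurf2 at chr11:106920706-106920965 (minus) and Inhba at chr13:16011601-16011860 (plus).
Id2: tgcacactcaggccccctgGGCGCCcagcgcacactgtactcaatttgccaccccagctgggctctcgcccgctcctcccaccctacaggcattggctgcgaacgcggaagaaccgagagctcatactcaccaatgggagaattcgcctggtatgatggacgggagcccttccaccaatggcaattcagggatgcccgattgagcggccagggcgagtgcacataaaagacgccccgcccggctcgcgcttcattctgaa
Id3: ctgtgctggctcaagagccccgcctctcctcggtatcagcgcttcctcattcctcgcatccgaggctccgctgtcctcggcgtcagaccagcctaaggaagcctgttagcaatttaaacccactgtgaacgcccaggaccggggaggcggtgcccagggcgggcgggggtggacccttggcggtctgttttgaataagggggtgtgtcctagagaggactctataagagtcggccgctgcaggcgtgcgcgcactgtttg
Smad6: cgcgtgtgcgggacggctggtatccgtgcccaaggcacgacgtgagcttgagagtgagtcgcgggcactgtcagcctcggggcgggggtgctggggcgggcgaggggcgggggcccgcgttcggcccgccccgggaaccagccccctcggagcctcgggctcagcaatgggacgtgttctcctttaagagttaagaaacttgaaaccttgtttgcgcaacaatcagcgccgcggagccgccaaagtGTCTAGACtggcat
Smurf2: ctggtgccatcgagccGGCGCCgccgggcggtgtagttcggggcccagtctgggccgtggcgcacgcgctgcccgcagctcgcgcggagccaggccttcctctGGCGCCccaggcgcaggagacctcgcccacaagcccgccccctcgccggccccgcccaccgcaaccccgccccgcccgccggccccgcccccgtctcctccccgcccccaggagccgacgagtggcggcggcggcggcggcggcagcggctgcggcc
Inhba: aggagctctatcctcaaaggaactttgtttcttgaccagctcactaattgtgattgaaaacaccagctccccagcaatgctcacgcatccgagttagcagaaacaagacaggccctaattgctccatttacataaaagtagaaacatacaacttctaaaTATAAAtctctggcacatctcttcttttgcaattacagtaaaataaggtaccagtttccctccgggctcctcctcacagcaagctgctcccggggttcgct
In these letters the Smad6 palindrome begins 4 bases before the start and spans it. Smurf2 held GGCGCC at 234 and 147 bases before the start and Id2 at 231 bases before it. None of the 4 motifs was found in the Id3 window.

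Immortalized cells at passage 30 were first compared with primary cells, to ask how far long culture after hTERT transduction changed the signalling genes. In iECDCs 14 of the 55 genes changed (edgeR quasi-likelihood test, adjusted p under 0.05 over all 13752 genes tested), 4 higher and 10 lower. Over all genes tested 16.4% changed, 7.21% higher and 9.21% lower. For the 47 genes tested the median log2 fold change was -0.10, against -0.0018 over all genes. The remaining 8, namely Mstn, Bmp2, Bmp5, Bmp7, Gdf5, Gdf10, Nog and Chrdl1, were below the filter on low counts. Changes were small. Gdf6 alone passed with an absolute log2 fold change of at least 1. The count moved with the libraries used, to 6 without pECDC replicate 1, 8 without pECDC replicate 2 and 8 without pECDC replicate 3, and to 26 without iECDC replicate 3, where 31.7% of all genes changed. Calls for Gdf6, Tgfbr1, Smad3 and Smurf2 held in every alternative that did not also require 1 log2 unit, and those for Tgfb1, Tgfb2, Tgfb3, Inhbb, Bmp6, Acvr1b, Acvrl1, Bmpr1a, Tgfbr3 and Id4 were lost in at least 1.

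Of the ligands, Gdf6, which encodes a BMP-type growth and differentiation factor, had 10.7, 11.8 and 12.1 FPKM in pECDCs and 2.76, 3.15 and 4.24 in iECDCs. The groups did not overlap, a condition for giving full statistics, and the log2 fold change was -1.79 (SE 0.139, edgeR adjusted p = 7.14e-05). All 3 TGF-β ligand genes were lower. Tgfb3 was at 8.88, 9.58 and 9.92 FPKM in pECDCs and 7.0, 6.58 and 6.89 in iECDCs, with a log2 fold change of -0.48 (SE 0.0766). Tgfb1 went from 14.2 ± 0.28 to 12.0 ± 0.49 FPKM and Tgfb2 from 1.08 ± 0.024 to 0.720 ± 0.12 (SD, n = 3), and both calls were lost without any 1 of the 3 pECDC libraries and without iECDC replicate 2, that of Tgfb2 also without iECDC replicate 1. Bmp6 was higher, at 2.85, 3.45 and 2.93 FPKM in pECDCs and 4.94, 5.91 and 4.20 in iECDCs (log2 fold change 0.70, SE 0.138), and the call was lost without pECDC replicate 1 or 3. Inhbb was lower, at 11.8 ± 0.57 FPKM in pECDCs and 9.02 ± 0.74 in iECDCs, and this call was lost without pECDC replicate 1. Bmp6 overlaps the oppositely oriented gene Txndc5, which had 8367 to 12258 counts per library, and since no strand setting for counting is given in the sources used here, reads of the pair cannot be told apart. Tgfb3 likewise overlaps Ttll5 on the opposite strand (258 to 404 counts).

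Among the receptors, 3 of the 6 type I genes were lower and 1 was higher. The TGF-β type I receptor gene Tgfbr1 was at 9.34, 8.47 and 8.84 FPKM in pECDCs and 5.79, 6.41 and 4.86 in iECDCs, so that the groups did not overlap (log2 fold change -0.66, SE 0.10, edgeR adjusted p = 0.00287). Acvr1b, an activin type I receptor gene, fell from 6.97 ± 0.31 to 5.38 ± 0.29 FPKM and Bmpr1a, a BMP type I receptor gene, from 15.1 ± 0.46 to 13.2 ± 0.18. The Acvr1b call was lost without pECDC replicate 1 or 2. Acvrl1, which encodes a type I receptor best known in endothelium, rose from 3.51 ± 0.16 to 4.43 ± 0.14. The Bmpr1a and Acvrl1 calls held without iECDC replicate 3 and were lost without any 1 other library. None of the 4 type II receptor genes passed, with log2 fold changes from -0.28 (Bmpr2) to -0.08 (Tgfbr2), and without iECDC replicate 3 Bmpr2 passed as lower (-0.32, edgeR adjusted p = 0.00427). Tgfbr3, the gene of the co-receptor betaglycan, was lower, at 10.5 ± 0.40 against 7.59 ± 0.47 FPKM.

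Inside the cell, Smad3 was at 18.1, 17.3 and 17.7 FPKM in pECDCs and 12.8, 12.4 and 14.7 in iECDCs (log2 fold change -0.43, SE 0.0745, edgeR adjusted p = 0.00538). The 6 other SMAD genes did not pass, and without iECDC replicate 3 Smad5 passed as lower (-0.16, edgeR adjusted p = 0.0385) and Smad9 as higher (0.37, adjusted p = 0.0384). Smurf2, a ubiquitin ligase gene that acts on SMADs and receptors, went the other way, from 25.1, 25.1 and 25.3 FPKM in pECDCs to 34.7, 38.6 and 40 in iECDCs (log2 fold change 0.57, SE 0.0669, adjusted p = 0.000686). Id4, an Id gene of low level here, rose from 0.606 ± 0.14 to 1.04 ± 0.20 FPKM, and its call held without iECDC replicate 3 and was lost without any 1 other library. No secreted antagonist and no latent TGF-β binding protein gene passed in the main fit, the edgeR test on all libraries of both groups with low counts filtered. For several of these iECDC replicate 3 stood apart by more than 1.5-fold. Grem1 was at 283 and 301 FPKM in iECDC replicates 1 and 2 and 149 in replicate 3, Ltbp2 at 2.26 and 2.18 against 6.18, and Ltbp4 at 8.09 and 7.66 against 16.8. Inha and Fst were the other 2 genes with this pattern. Without replicate 3 Grem1, Ltbp2 and Ltbp4 passed as lower in iECDCs, with log2 fold changes of -0.34, -1.5 and -0.74 (edgeR adjusted p = 3.78e-06, 2.07e-10 and 5.38e-08). So did Fstl1 (-0.29, adjusted p = 2.88e-05), while Fstl3 passed as higher (0.19, adjusted p = 0.0271), as did Gdf11 (0.19), Gdf15 (0.43), Id1 (0.22) and Id2 (0.23). With every library kept, Grem1 and Ltbp2 passed as lower with no filter on low counts and with a block for replicate numbers, and Ltbp4 with no filter.

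**Figure D2:**
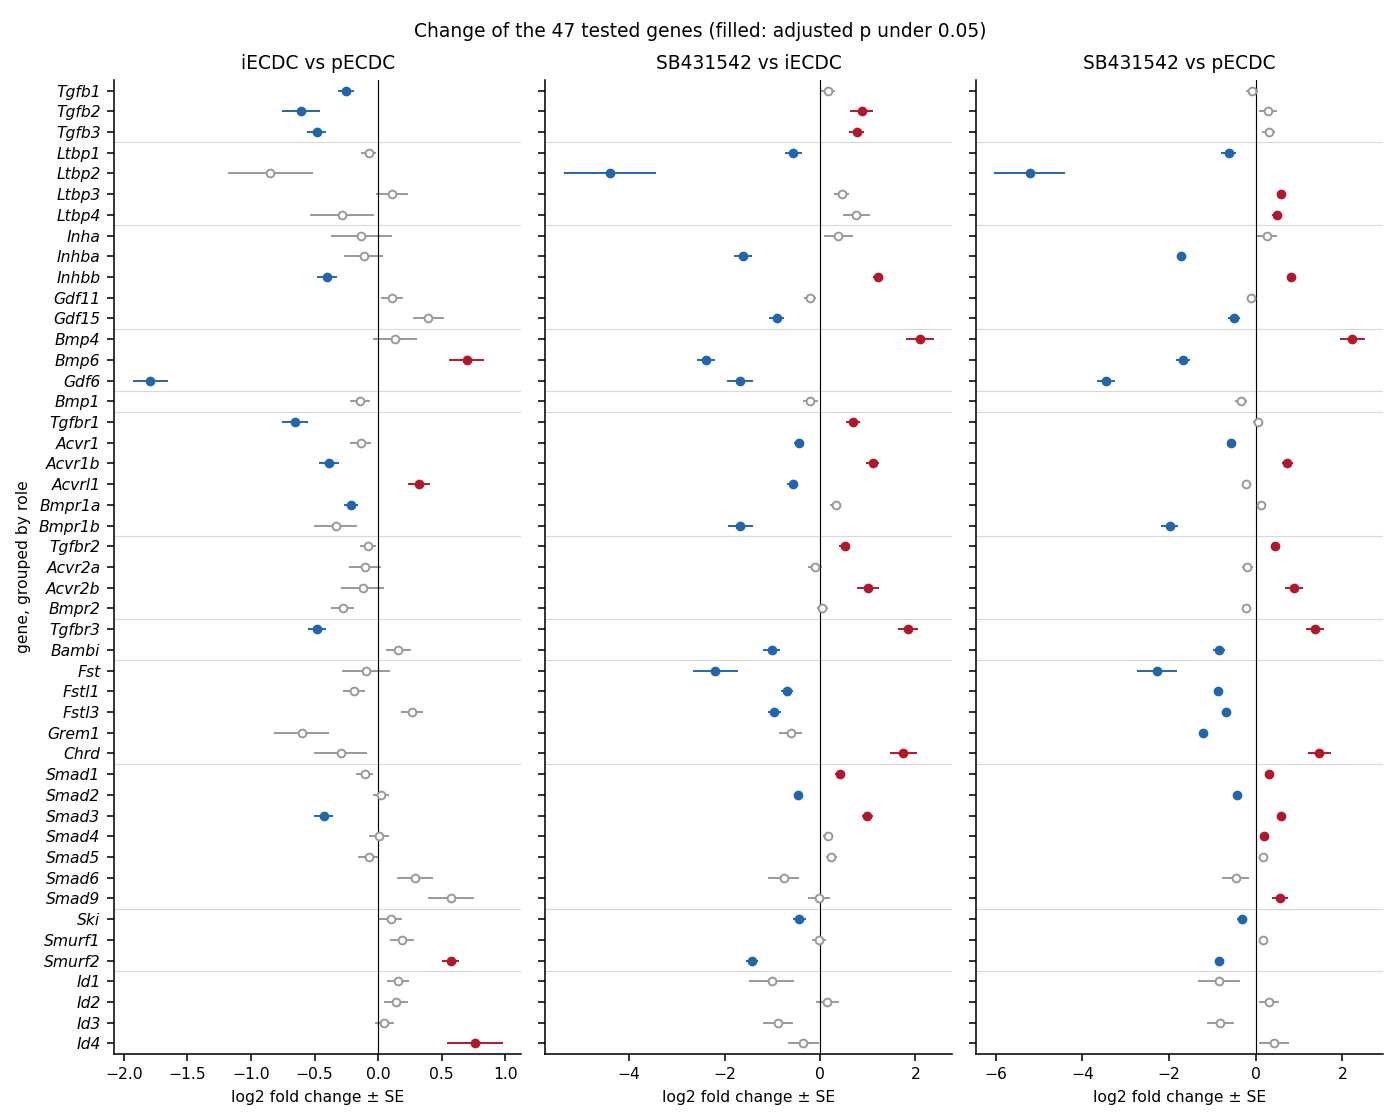
Log2 fold change with its SE for the 47 tested genes in the 3 comparisons (positive: higher in the group named first; filled red: higher, filled blue: lower, open grey: not passed; the axes of the panels differ in range). The comparison of iECDCs with pECDCs shows changes within 1 log2 unit except for Gdf6, and both SB431542 panels reach beyond 4 log2 units at Ltbp2.

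SB431542-treated cells were next compared with untreated iECDCs, which by the labels measures the response to the inhibitor. Of the 55 genes 28 changed, 12 higher and 16 lower, in a comparison in which 30.0% of all 13559 genes tested changed, 16.0% higher and 14.0% lower. Their median log2 fold change was -0.10, against 0.0014 over all genes. An absolute log2 fold change of at least 1 was reached by 14. The count was 19 to 37 when libraries were left out in turn. It was highest without SB431542 replicate 2, where 50.2% of all genes changed, and there all 28 calls were kept and 9 were added. Without iECDC replicate 3 it was 29, with Ltbp1 and Ski lost, and without both libraries it was 42 (64.5% of all genes). Calls for Tgfb2, Ltbp1, Acvr1, Acvrl1, Tgfbr2, Acvr2b, Fst, Smad1, Smad2 and Ski were lost in at least 1 alternative, and the other 18 held in all that did not also require 1 log2 unit. Genes that TGF-β is known to induce, Ctgf, Tgfbi and Junb among them, were mostly lower, 7 of a list of 9, led by Pmepa1 with 67.0 FPKM in iECDCs and 3.38 in treated cells, and Tgfbi alone was higher. That list was chosen with results of these libraries known.

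Activin and BMP ligand genes held the largest ligand changes. Inhba was at 111, 127 and 77.1 FPKM in iECDCs and 31.3, 37.0 and 33.7 in treated cells (log2 fold change -1.62, SE 0.191, edgeR adjusted p = 0.00142). Inhbb, the activin B subunit gene, was at 8.89, 8.35 and 9.82 FPKM in iECDCs and 20.4, 21.6 and 20.3 in treated cells (log2 fold change 1.21, SE 0.101, adjusted p = 0.000466). The activin subunit genes thus moved in opposite directions. The inhibin α gene Inha did not pass (0.38, SE 0.299, adjusted p = 0.353). Bmp4 was higher in treated cells, at 8.47, 4.23 and 8.37 FPKM against 1.59, 1.98 and 1.42 (log2 fold change 2.09, SE 0.296, adjusted p = 0.00267). Bmp6 was lower, at 1.07, 0.792 and 0.993 FPKM against 4.94, 5.91 and 4.20 (-2.39, SE 0.196, adjusted p = 0.000426). Gdf6 was also lower, at 1.39, 0.727 and 1.03 FPKM against 2.76, 3.15 and 4.24 (-1.68, SE 0.271, adjusted p = 0.00426). In all 3, as in Inhba and Inhbb, the treated libraries lay wholly on 1 side of the untreated ones. That was a condition for giving full statistics and not a separate result. Of the TGF-β ligand genes Tgfb3 and Tgfb2 were higher, by 0.77 (SE 0.153) and 0.87 (SE 0.245) on the log2 scale, and Tgfb1 did not pass (adjusted p = 0.409) except without SB431542 replicate 2 (0.31, adjusted p = 0.0193). Gdf11 likewise passed only without that library (-0.31, adjusted p = 0.0419). The Tgfb2 call was lost without iECDC replicate 1 or 2 or SB431542 replicate 1 or 3. Gdf15, a stress-induced ligand gene, fell from 5.95 ± 0.57 to 3.14 ± 0.31 FPKM.

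The largest change of any member was in Ltbp2, an elastic-fibre protein gene of the latent TGF-β binding protein family. It had 374, 293 and 777 counts in iECDCs and 1, 78 and 1 in treated cells. As levels these were 2.26, 2.18 and 6.18 FPKM against 0.00697, 0.453 and 0.00676, with a log2 fold change of -4.40 (SE 0.973, edgeR adjusted p = 0.0133). Replicate 2 decided the size of the fold. With treated replicates 1 and 3 alone, both below the limit of 3 counts per library (0.0206 FPKM), the mean iECDC level was at least 172-fold higher. Without iECDC replicate 3 this bound was 108-fold, and the log2 fold change with all treated libraries was -3.76 (edgeR adjusted p = 0.0479). Ltbp1 was lower as well, at 18.9, 28.4 and 18.2 FPKM in treated cells against 32.5, 33.5 and 31.5, and this call was lost without any 1 library other than SB431542 replicate 2. Ltbp3 and Ltbp4 were at 85.4 ± 3.7 and 18.2 ± 2.8 FPKM in treated cells against 62.9 ± 13 and 10.9 ± 5.2 and did not pass (edgeR adjusted p = 0.0575 and 0.0782). Without iECDC replicate 3 both passed as higher, by 0.62 and 1.20 (adjusted p = 0.0136 and 0.00699), and both passed as well in DESeq2, with no filter on low counts and with all 9 libraries in the fit.

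Of the 12 receptor genes 5 were higher, among them Acvr1b and Tgfbr1, and 4 were lower. Acvr1b was at 12.1, 9.51 and 12.8 FPKM in treated cells and 5.05, 5.59 and 5.49 in iECDCs (log2 fold change 1.10, SE 0.136, edgeR adjusted p = 0.00166). Tgfbr1 was at 9.24, 7.97 and 10.2 against 5.79, 6.41 and 4.86 (0.69, SE 0.142). Both genes encode kinases that SB431542 inhibits. The treated and untreated libraries did not overlap for either, which for Acvr1b was a condition for giving full statistics. The third such gene, Acvr1c, had at most 0.0179 FPKM in any library. Of the remaining type I receptor genes, Bmpr1b fell to 0.321 ± 0.069 FPKM from 1.04 ± 0.21 (log2 fold change -1.67, SE 0.256, adjusted p = 0.00359), Acvr1 and Acvrl1 were lower by 0.44 and 0.57 log2 units, and Bmpr1a did not pass in the main fit (adjusted p = 0.0547). Bmpr1a passed as higher without SB431542 replicate 2 (0.40, edgeR adjusted p = 0.00492). It also passed as higher with all 9 libraries in the fit and where at least 10 counts were required in every library. The Acvrl1 call was lost without SB431542 replicate 3, and that of Acvr1 without iECDC replicate 1 or 2 or SB431542 replicate 1 or 3. Among type II genes the TGF-β receptor gene Tgfbr2 rose from 11.6 ± 0.72 to 16.5 ± 1.9 FPKM and the activin receptor gene Acvr2b from 0.610 ± 0.018 to 1.22 ± 0.29 (log2 fold change 1.0, SE 0.236, adjusted p = 0.0166). Both calls were lost without iECDC replicate 1 or 2 or SB431542 replicate 3, that of Tgfbr2 also without SB431542 replicate 1. Acvr2a and Bmpr2 did not pass. Tgfbr3 rose to 30.7, 18.4 and 32.1 FPKM from 7.72, 7.97 and 7.07 (1.85, SE 0.208, adjusted p = 0.0012). Bambi, which encodes a receptor-like protein without a kinase that damps TGF-β and BMP signalling, fell from 2.45 ± 0.11 to 1.20 ± 0.20 FPKM (-1.02, SE 0.169, adjusted p = 0.00475).

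Of the secreted antagonists 3 were lower, 1 was higher and Grem1 did not pass. Fst, the gene of the activin trap follistatin, was at 1.06, 4.14 and 1.36 FPKM in treated cells against 12.7, 10.9 and 6.79 in iECDCs (log2 fold change -2.19, SE 0.481, edgeR adjusted p = 0.013). Without SB431542 replicate 2 the fold change of Fst was -3.06 (adjusted p = 3.39e-05), and without iECDC replicate 1 it was -2.0 and did not pass (adjusted p = 0.0556). Fstl3, a follistatin relative, fell from 17.6 ± 1.8 to 9.0 ± 1.2 FPKM and Fstl1 from 180 ± 22 to 110 ± 3.9. Chrd, the gene of the BMP trap chordin, rose from a low level, 0.396, 0.360 and 0.541 FPKM in iECDCs, to 1.5, 0.965 and 1.85 (1.75, SE 0.289, adjusted p = 0.00472). Grem1 was at 158 ± 4.5 FPKM in treated cells against 244 ± 83 in iECDCs (adjusted p = 0.0894). Without iECDC replicate 3 it passed as lower (log2 fold change -0.89, adjusted p = 0.00686). It passed as lower as well in DESeq2, with no filter on low counts and with all 9 libraries in the fit.

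The SMAD genes were divided. Smad3 was at 25.4, 29.3 and 24 FPKM in treated cells and 12.8, 12.4 and 14.7 in iECDCs (log2 fold change 0.99, SE 0.119, edgeR adjusted p = 0.00152). Smad2, whose product carries the same signals, fell from 14.9 ± 0.52 to 10.7 ± 0.15 FPKM, a call that was lost without iECDC replicate 1, and Smad1 rose from 6.93 ± 0.21 to 9.13 ± 0.78, a call that was lost without iECDC replicate 1 or 2 or SB431542 replicate 3. Smad4, Smad5, Smad6 and Smad9 did not pass. Of the intracellular regulators Smurf2 fell to 12.7, 16 and 13 FPKM from 34.7, 38.6 and 40 (-1.43, SE 0.126, adjusted p = 0.000578), its relative Smurf1 was at 20.9 ± 2.8 against 21.4 ± 3.0 (adjusted p = 0.91), and the SMAD co-repressor gene Ski was lower by 0.44 log2 units, a call that held without SB431542 replicate 2 and was lost without any 1 other library. The plot of the genes with 2-fold changes gives each library.

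**Figure D3:**
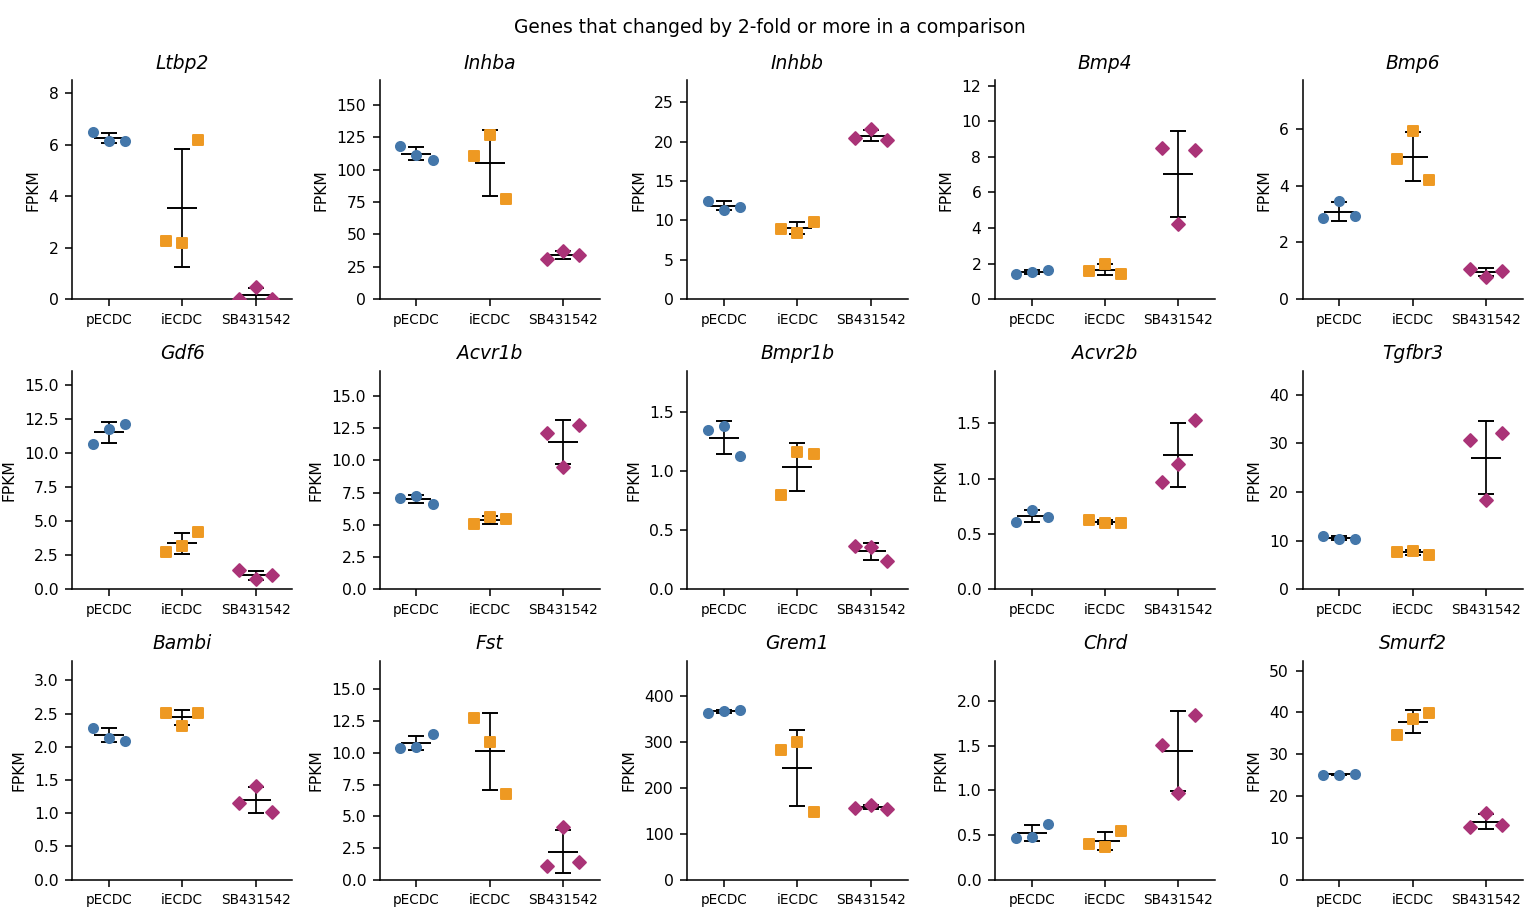
FPKM by library of the 15 genes that passed with an absolute log2 fold change of at least 1 in any comparison (1 point per library in replicate order, line and bars: mean ± SD, n = 3; linear axes from 0). Genes were drawn only if they also had at least 1 FPKM on average where higher and groups that did not overlap, so separation was a condition. Inhba, Bmp6, Gdf6, Bmpr1b, Bambi and Smurf2 are lower in all 3 treated libraries than in any iECDC library, and Inhbb, Bmp4, Acvr1b, Acvr2b, Tgfbr3 and Chrd are higher.

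The Id genes and Smad6 split the treated libraries. Id1 was at 17.3 and 17.7 FPKM in SB431542 replicates 1 and 3 and 65.3 in replicate 2, against 76.6, 66.2 and 62.2 in iECDCs. Replicate 2 thus lay within the untreated range. Id3 was at 75.5 and 76.2 against 174 in replicate 2, with 220, 188 and 195 in iECDCs, so that replicate 2 lay just below the untreated range. Smad6, the gene of a BMP-branch inhibitory SMAD, was at 7.13 and 6.11 against 15.1, with 14.1, 13.9 and 20.4 in iECDCs. Id2 was at 18.1 and 17.8 against 33.2, above the 18.3 to 23.4 of iECDCs. In the main edgeR fit none of the 4 Id genes passed, with adjusted p = 0.131 for Id1, 0.649 for Id2, 0.0612 for Id3 and 0.447 for Id4. With every library kept, Id1 passed as lower with no filter on low counts and with a block for replicate numbers. Id3 passed as lower in these settings, in DESeq2 and with all 9 libraries in the fit, and Smad6 in DESeq2 and with no filter. Without replicate 2 Id1, Id3, Id4 and Smad6 passed as lower in treated cells, with log2 fold changes of -1.95, -1.40, -0.81 and -1.27 (edgeR adjusted p = 3.24e-06, 1.16e-05, 0.0223 and 0.000412), and Id2 did not (-0.21, adjusted p = 0.162, against 0.15 with all libraries). Against pECDCs Id1, Id3 and Smad6 also passed as lower without replicate 2, with -1.79, -1.33 and -0.97 (edgeR adjusted p = 7.42e-14, 1.49e-14 and 6.42e-09). Id3 passed as lower against pECDCs with every library kept as well, in the settings named for it above. Replicate 2 lay more than 1.5-fold beyond both other treated libraries in 9 of the 43 genes with a mean of at least 1 FPKM, above them in Ltbp1, Fst, Smad6, Id1, Id2 and Id3 and below them in Bmp4, Tgfbr3 and Chrd. Neither of the other treated libraries did so in any gene.

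**Figure D4:**
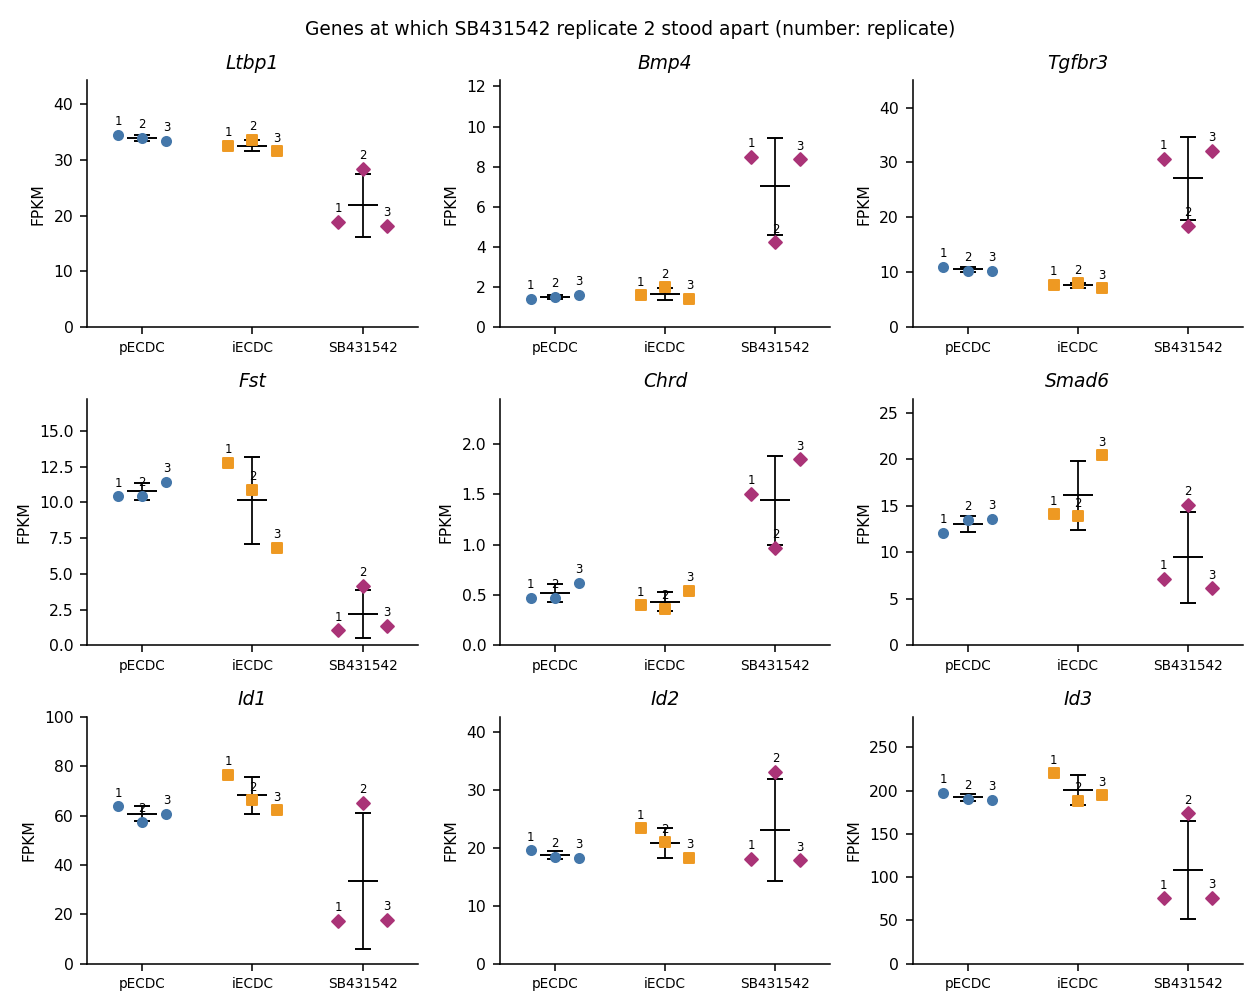
FPKM of the 9 genes at which SB431542 replicate 2 lay more than 1.5-fold beyond both other treated libraries (numbers: replicate; line and bars: mean ± SD, n = 3; linear axes from 0). For Id1 and Smad6 replicate 2 sits among the iECDC libraries, and for Bmp4, Tgfbr3 and Chrd it sits between the iECDC libraries and the other treated ones.

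**Figure D5:**
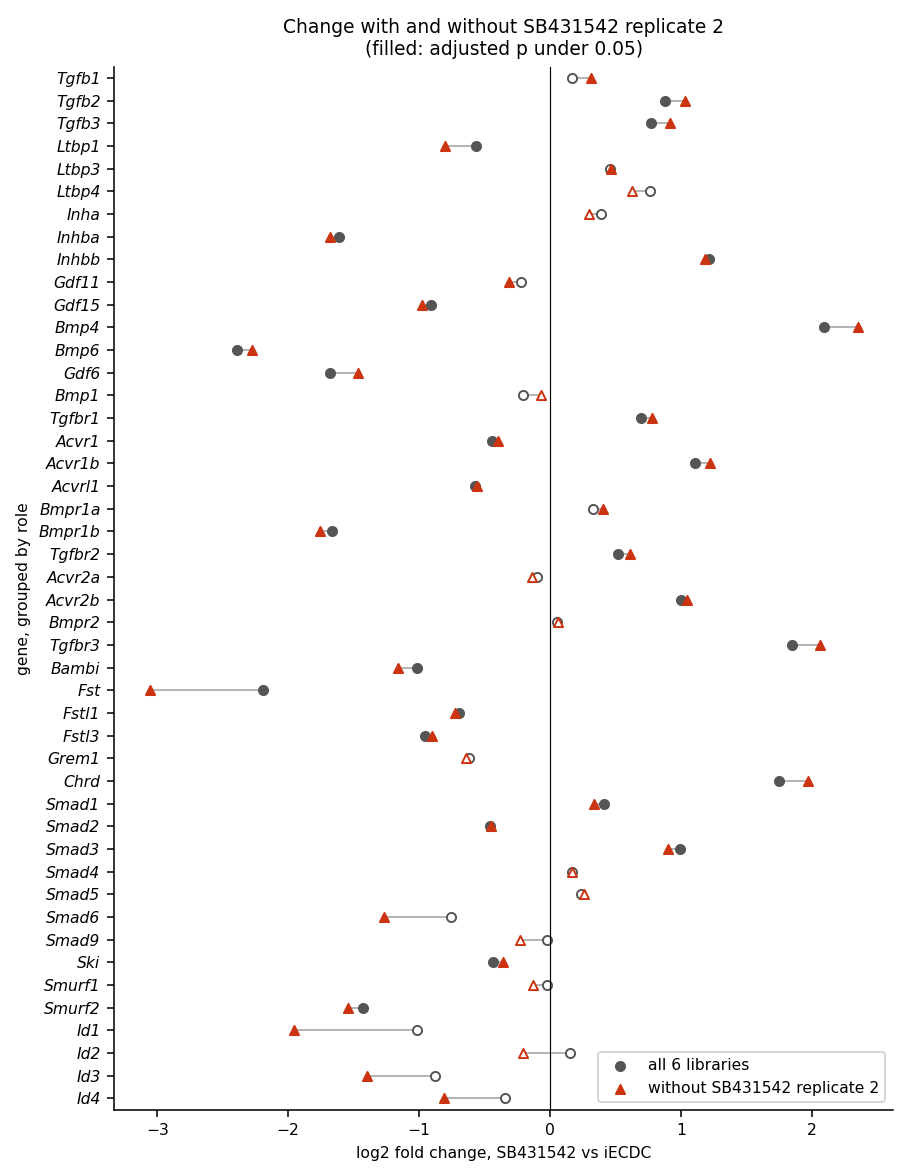
Log2 fold change of SB431542-treated cells against iECDCs for 46 tested genes with all 6 libraries (circles) and without SB431542 replicate 2 (triangles), filled where the edgeR adjusted p was under 0.05. Ltbp2 is left out because the treated libraries that remain hold 1 count each. Id1 moves from -1.02 to -1.95 and Fst from -2.19 to -3.06.

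Set against primary cells, the treated libraries gave 29 changed genes of the 55, 13 higher and 16 lower, where 34.8% of the 14015 genes tested changed, 17.9% higher and 17.0% lower. The median log2 fold change was -0.10, against 0.0068 over all genes. Both SB431542 comparisons use the same treated libraries, and their values are therefore given side by side and not as separate support. An absolute log2 fold change of at least 1 was reached by 10. The count was 20 to 41 when libraries were left out in turn, highest without SB431542 replicate 2 (64.1% of all genes). Calls for Ltbp1, Ltbp4, Gdf15, Tgfbr2, Acvr2b, Smad1, Smad4, Smad9 and Ski were lost in at least 1 alternative, each of them without every single pECDC library in turn.

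Against pECDCs Inhba had a log2 fold change of -1.72 (SE 0.089, edgeR adjusted p = 8.02e-05), Bmp4 of 2.23 (SE 0.285, adjusted p = 0.00193), Bmpr1b of -1.99 (SE 0.199, adjusted p = 0.000858) and Fst of -2.28 (SE 0.456, adjusted p = 0.0094). Tgfbr3 and Chrd were higher by 1.37 (SE 0.204) and 1.47 (SE 0.265) and Bmp6 lower by 1.69 (SE 0.159). Ltbp2 stood at -5.22 (SE 0.814, adjusted p = 0.0038), and its mean pECDC level was at least 304-fold above the limit of 3 counts in treated replicates 1 and 3. Gdf6, which was also lower in iECDCs, had the log2 fold change -3.46 (SE 0.211, adjusted p = 0.000138). Without SB431542 replicate 2 the Fst value was -3.14 (adjusted p = 5.96e-15). Tgfb1, Tgfb2, Tgfb3 and Tgfbr1 did not pass against pECDCs (edgeR adjusted p = 0.689, 0.308, 0.157 and 0.749), and without SB431542 replicate 2 Tgfb2 and Tgfb3 did, both by 0.44. Also without that library Bmpr1a (0.20) and Smad5 (0.20) passed as higher and Acvrl1 (-0.23), Bmpr2 (-0.21), Bmp1 (-0.20) and Gdf11 (-0.19) as lower. Inhbb, Acvr1b and Smad3 stayed above pECDCs, by 0.82, 0.73 and 0.57 log2 units. Grem1 was at 364, 367 and 371 FPKM in pECDCs and 156, 163 and 155 in treated cells (-1.21, SE 0.0719, adjusted p = 0.000127). Ltbp3 and Ltbp4 were higher than in pECDCs, by 0.57 and 0.49.

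A further 62 superfamily genes not among the 55 were read in the same fits. In iECDCs against pECDCs 4 were higher and 8 lower of 35 tested, in treated cells against iECDCs 8 were higher and 11 lower of 34, and in treated cells against pECDCs 9 were higher and 12 lower of 35. Over all genes tested 16.4%, 30.0% and 34.8% changed in these comparisons, in that order. Of the 16 other ligand genes only Lefty1, an antagonist of nodal, was tested. Tll1, Lrrc32 and Itgb8 are genes for the handling of latent TGF-β or of antagonists. Tll1, which encodes a tolloid-type protease, was at 8.28, 8.77 and 6.46 FPKM in iECDCs and 0.191, 0.337 and 0.121 in treated cells (log2 fold change -5.14, SE 0.305, edgeR adjusted p = 0.000315). Lrrc32, whose product GARP tethers latent TGF-β to the cell surface, had 39.1 FPKM in pECDCs, 16.8 in iECDCs and 4.78 in treated cells on average, with log2 fold changes of -1.23 (iECDCs against pECDCs) and -1.80 (treated cells against iECDCs). Itgb8, an integrin subunit gene known for TGF-β activation, was at 1.84, 1.77 and 1.78 FPKM in pECDCs, 0.963, 0.886 and 0.677 in iECDCs and 5.47, 3.05 and 5.49 in treated cells (log2 fold changes -1.10 and 2.48). Htra3, a protease gene, rose by 1.59 in treated cells against iECDCs. The feedback genes Pmepa1 and Skil fell by 4.29 and 2.14 in that comparison. Against pECDCs Htra3 and Itgb8 rose by 1.75 and 1.38 and Tll1, Pmepa1, Lrrc32 and Skil fell by 5.79, 4.12, 3.02 and 2.06 on the log2 scale. Pmepa1 and Skil were also among the 9 TGF-β target genes above.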

How the data were processed

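RNA of 9 libraries was sequenced in 3 groups of 3 (pECDCs, iECDCs and SB431542). The deposited table gives, for each gene, raw counts per library that the authors made from aligned reads, and FPKM values, in which the authors scaled the count to the gene's length and to a single factor per library. TopHat2 2.0.9 and Bowtie2 2.0.6 are named in the submitters' processing notes. These notes name mm9, yet 53548 of 54532 genes have the position of GENCODE M21, a GRCm38 annotation. The counting program and its strand setting are not given in the sources used here. For 1 gene in 1 library the count did not match the FPKM (relative tolerance 0.001). The table's columns of fold changes, p-values and group means were not used.

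Groups were taken from the labels. Each comparison was fitted on its own 6 libraries with the quasi-likelihood test of edgeR 4.0.16 under R 4.3.3. Library sizes were scaled by TMM, low genes were removed by filterByExpr at 10 counts (15 in total), and p was adjusted by Benjamini-Hochberg over all genes tested. A gene changed where the adjusted p was under 0.05. The test was checked on simulated counts with the same spread for every gene and no library that stood apart. That check does not cover the wider spread of the SB431542 comparisons. Full statistics were given for genes that passed with an absolute log2 fold change of at least 1, at least 1 FPKM on average where they were higher, and groups that did not overlap. Other genes named with values fall outside this rule. Alternatives were DESeq2 1.42.0, RLE size factors, other filters, a fit over all 9 libraries, a block for the labels' replicate numbers, each library left out, and limma 3.58.1 on log2(FPKM + 1) or log2(FPKM + 0.1). Leaving out both libraries that stood apart was added after seeing the data. The genes, the further lists and the motifs were chosen with earlier results of these data known. Of the 55 genes 26 overlap another gene, 20 of them on the opposite strand. Promoter windows came from RefSeq. Totals of 16568306 to 23951392 counts set the precision, and genes with 3 counts or fewer were taken as at the limit of detection.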

Additional observations from a re-analysis of the deposited data

How the results depend on the processing

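No gene that passed changed direction in the alternatives run. Of the genes that did not pass, 9 changed sign in at least 1 alternative for iECDCs against pECDCs, 4 for SB431542 against iECDCs (Bmpr2, Smad9, Smurf1 and Id2) and 4 against pECDCs (Tgfb1, Tgfbr1, Id2 and Id4). For iECDCs against pECDCs 14 became 6 with all 9 libraries in 1 fit, 1 where calls also had to reach 1 log2 unit, and 6 to 26 with each library left out. For SB431542 against iECDCs 28 became 14 with the same requirement, and against pECDCs 29 became 10. With each library left out these were 19 to 37 and 20 to 41, within 1.5-fold. DESeq2, RLE size factors, other filters and limma on FPKM stayed within 1.5-fold. With the replicate block the counts were 12, 28 and 26. Same-numbered libraries did not deviate together (r from -0.207 to 0.033). The libraries that stood apart, iECDC replicate 3 and SB431542 replicate 2, bear different numbers and weigh heavily in r, so a pairing by number is not excluded. Of the alternatives for named genes 373 kept their call and 6 lost it, 4 for Acvr2b and 2 for Fst. Over all genes 2258 calls in iECDCs against pECDCs became 671 with all 9 libraries, 1339 with limma on log2(FPKM + 0.1), 4467 without iECDC replicate 3, and 1036 to 1065 without a pECDC library. The 4061 calls of SB431542 against iECDCs became 2291 with limma without a filter, 7001 without SB431542 replicate 2, 8951 without both libraries that stood apart, and 1707 to 1886 without any 1 of the remaining libraries other than iECDC replicate 3. The 4881 calls of SB431542 against pECDCs became 9188 without SB431542 replicate 2, 3181 without SB431542 replicate 1 and 2453 to 2522 without a pECDC library. The causes were not tested. Depth limits the genes at or under 3 counts, for which no fold was given except as a bound.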
